A study of Mus musculus with 2 samples.

Results

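Enzymes that make serine, asparagine and one-carbon units were examined in the femoral growth cartilage of mouse embryos lacking *Tric-b*. The set comprised 10 genes listed by name, *Phgdh*, *Psat1*, *Psph*, *Shmt1*, *Shmt2*, *Mthfd1*, *Mthfd2*, *Mthfd1l*, *Asns* and *Cth*. All probe sets annotated to 1 of these genes alone were taken, which gave 24 probe sets of the 45037 on the array and 10 of 18193 named genes. A further 2 probe sets carried *Phgdh* together with another gene name and were left out.

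Total RNA from E17.5 embryos was hybridized to 2 Affymetrix mouse genome arrays. One array held the femoral plate section enriched with round chondrocytes (the round section), and the other held that with columnar and hypertrophic chondrocytes (the columnar section). Each RNA was a mixture of 3 preparations, and how many embryos gave each preparation was not given in the sources used here. Both arrays were *Tric-b*-KO on the strain label C57BL/6J, 129Sv, so the loss of TRIC-B, an endoplasmic reticulum (ER) cation channel, was shared by the zones, and wild-type arrays were not analysed here. With 1 array per zone there was no replicate, no test and no error between animals, and every difference below compares 2 mixtures. In such bulk RNA, fewer cells of a type and less RNA per cell cannot be told apart.

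Serine is built from the glycolytic intermediate 3-phosphoglycerate by PHGDH, PSAT1 and PSPH in turn. The serine hydroxymethyltransferases then split it into glycine and a one-carbon unit carried on folate, SHMT1 in the cytosol and SHMT2 in mitochondria. MTHFD1 in the cytosol, and MTHFD2 with MTHFD1L in mitochondria, interconvert these folate forms so that formate and purine and thymidylate precursors can be made. ASNS makes asparagine from aspartate and glutamine, and CTH releases cysteine in transsulfuration. Many of these genes are known targets of ATF4, the transcription factor translated when eIF2α is phosphorylated, and glycine is the most frequent residue of collagen, the main protein product of chondrocytes.

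The promoters of 9 of the 10 genes, in 10 windows, were found in the RefSeq table for GRCm38.p6. Each window held 250 bases before and 50 after an annotated start. Motifs were searched by their letters on both strands. TGATGNAA, the core of the C/EBP-ATF response element to which ATF4 binds, was in 1 of 10 windows, that of *Asns*, and in 3.97% of all 32851 windows. The cyclic AMP response element TGACGTCA and the E-box CACGTG were in 0 of 10, against 1.79% and 7.15% of all windows. The GC box GGGCGG was in 6 of the 10 windows (35.7% of all windows), the CCAAT box CCAAT in 6 (37.4%), and the TATA box TATAAA in that of *Phgdh* (13.6%). The member windows held a median of 16.5 CpG dinucleotides, against 7 in all windows. Letters absent from these windows may stand elsewhere in the gene, and a match is not a measured binding site. The bases before the start are shown for 4 genes, all on the minus strand, with matches to any of these 6 motifs on either strand in capitals.
Asns: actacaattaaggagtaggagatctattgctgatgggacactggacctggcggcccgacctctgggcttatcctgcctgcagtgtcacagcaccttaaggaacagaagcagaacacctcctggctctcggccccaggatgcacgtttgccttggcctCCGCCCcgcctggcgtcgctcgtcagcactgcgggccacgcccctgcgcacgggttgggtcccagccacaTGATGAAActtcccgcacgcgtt
Phgdh: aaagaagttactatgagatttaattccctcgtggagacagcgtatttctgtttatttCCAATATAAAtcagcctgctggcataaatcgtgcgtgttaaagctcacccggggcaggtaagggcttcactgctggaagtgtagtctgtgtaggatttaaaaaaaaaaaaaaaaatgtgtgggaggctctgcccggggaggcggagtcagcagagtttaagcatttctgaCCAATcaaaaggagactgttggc
Psph: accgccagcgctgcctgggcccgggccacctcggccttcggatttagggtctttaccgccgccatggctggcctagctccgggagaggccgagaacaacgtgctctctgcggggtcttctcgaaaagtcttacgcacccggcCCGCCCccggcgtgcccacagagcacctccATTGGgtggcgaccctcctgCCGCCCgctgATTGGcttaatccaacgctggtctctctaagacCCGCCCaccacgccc
Shmt1: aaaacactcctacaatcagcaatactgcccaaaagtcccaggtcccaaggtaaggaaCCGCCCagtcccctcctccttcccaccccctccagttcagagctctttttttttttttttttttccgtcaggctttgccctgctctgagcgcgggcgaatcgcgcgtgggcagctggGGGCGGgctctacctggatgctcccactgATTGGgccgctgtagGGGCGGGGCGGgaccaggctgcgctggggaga

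*Asns*, at chr6:7693210-7693459, is shown for its C/EBP-ATF core, which ran from base -23 to base -16 before the start. *Phgdh*, at chr3:98339970-98340219, is shown as the entry enzyme of serine synthesis, and its TATA box from -189 to -184 shared a base with the CCAAT box ending at -189. *Psph*, at chr5:129787254-129787503, had the largest zone difference of the set and held 3 GC boxes and 2 CCAAT boxes on the reverse strand. *Shmt1*, at chr11:60811266-60811515, was the member with the opposite direction, and its GC boxes from -32 to -27 and from -27 to -22 overlapped by a base.

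Of the 10 enzymes, 9 had a higher signal in the columnar section than in the round section, and *Shmt1* had a lower one. Over all compared genes, 46.8% lay on the columnar side. The median log2 difference of the 10, columnar/hypertrophic minus round, was 0.61, against -0.04 over the 12761 compared genes. The difference was at least 2-fold for 2 members, *Psph* and *Cth*, in the columnar direction, and for 0 in the round direction. Over all genes these shares were 4.28% and 6.25%. At least 1.5-fold higher in the columnar section were 5 members, and 0 were so in the round section, against 10.4% and 15.3% of all genes. Scaling affects the balance of all calls: of the genes at least 2-fold apart, the columnar side held 40.6% as deposited, 49.4% with the median difference set to 0, 50.3% when signals were quantile normalized and 52.8% after lowess centring. The 9-to-1 split of the enzymes was the same under all 3.

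**Figure D1:**
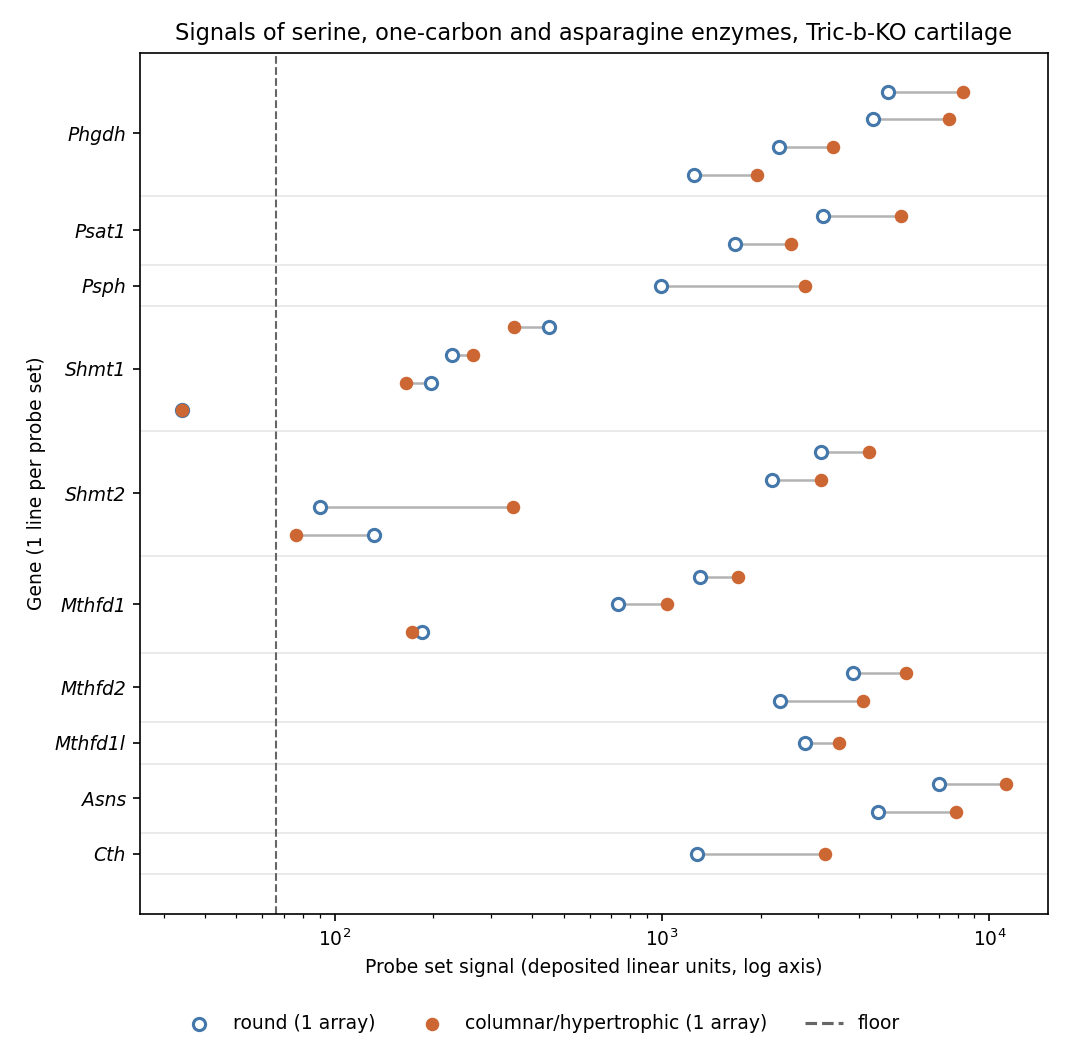
Signals of all 24 probe sets of the 10 enzymes on a log axis, in the round section (open circles) and the columnar section (filled circles), 1 array each, with 1 line per probe set ordered by brightness within a gene. A dashed line marks the floor, 65.9, and the filled circles lie to the right of the open ones for every probe set of *Phgdh*, *Psat1*, *Psph*, *Mthfd2*, *Mthfd1l*, *Asns* and *Cth*.

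A gene took the value of its brightest probe set, and signals under 65.9, the 40th percentile of all signals, were not distinguished from each other. Of the 24 probe sets, 23 lay above this floor in both arrays, and 1, of *Shmt1*, lay under it in both. Of the 23, 19 were higher in the columnar section and 4 in the round section, and all compared probe sets had a median log2 difference of -0.09. The share on the columnar side was 46.8% over all compared genes and was not counted over all probe sets. All 16 probe sets with a mean signal of at least 1000 were on the columnar side. Of all genes of that brightness 56.9% lay there, which is a share of genes and not of probe sets. The cut left out the 4 probe sets on the round side. Several of the 16 belong to the same gene, so they are not separate observations. The 2-fold rule was passed toward the columnar section by 3 of these 23, and toward the round section by 0. Among all 29258 compared probe sets, 1047 (3.58%) passed it toward the columnar section and 1827 toward the round section. The 3 include a dim probe set of *Shmt2*, with signals of 89.7 (round) and 350 (columnar). Another dim probe set of that gene had a log2 difference of -0.79. The only spread these data hold is that between probe sets of the same gene, whose log2 differences had a pooled SD of 0.34 over 5446 genes. It contains no variation between preparations or embryos.

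Genes of the serine synthesis pathway had higher signals in the columnar section at each of its 3 steps. *Phgdh*, encoding the first enzyme, had signals of 4889 in the round section and 8278 in the columnar section, a 1.69-fold difference. Over its 4 probe sets the log2 difference ran from 0.55 to 0.78, so all were on the same side and their SD was 0.11. All 4 are of the kind whose identifier ends in _x_at, which marks probes that also match other transcripts. *Psat1*, encoding the aminotransferase of the second step, had signals of 3097 and 5378, a log2 difference of 0.80. Its second probe set gave 1668 and 2483, a log2 difference of 0.57.

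*Psph*, encoding the phosphatase that completes serine, had signals of 989 in the round section and 2730 in the columnar section. This 2.76-fold difference was the largest of the 10 genes, and 2.02% of all compared genes had a log2 difference as high as its 1.46. The gene had a single probe set, so no second probe set bears on it. Among all genes, 6.73% reached the difference of *Phgdh* and 6.27% that of *Psat1*.

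*Asns*, encoding asparagine synthetase, gave the brightest signals of its 2 probe sets at 7025 in the round section and 11271 in the columnar section. The other gave 4555 and 7918. The log2 differences were 0.68 and 0.80, a difference of 1.60-fold and 1.74-fold, and 8.12% of all genes reached the first. *Cth*, encoding cystathionine gamma-lyase, had signals of 1282 and 3152 on its single probe set. Its log2 difference of 1.30 was reached by 2.52% of all genes.

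**Figure D2:**
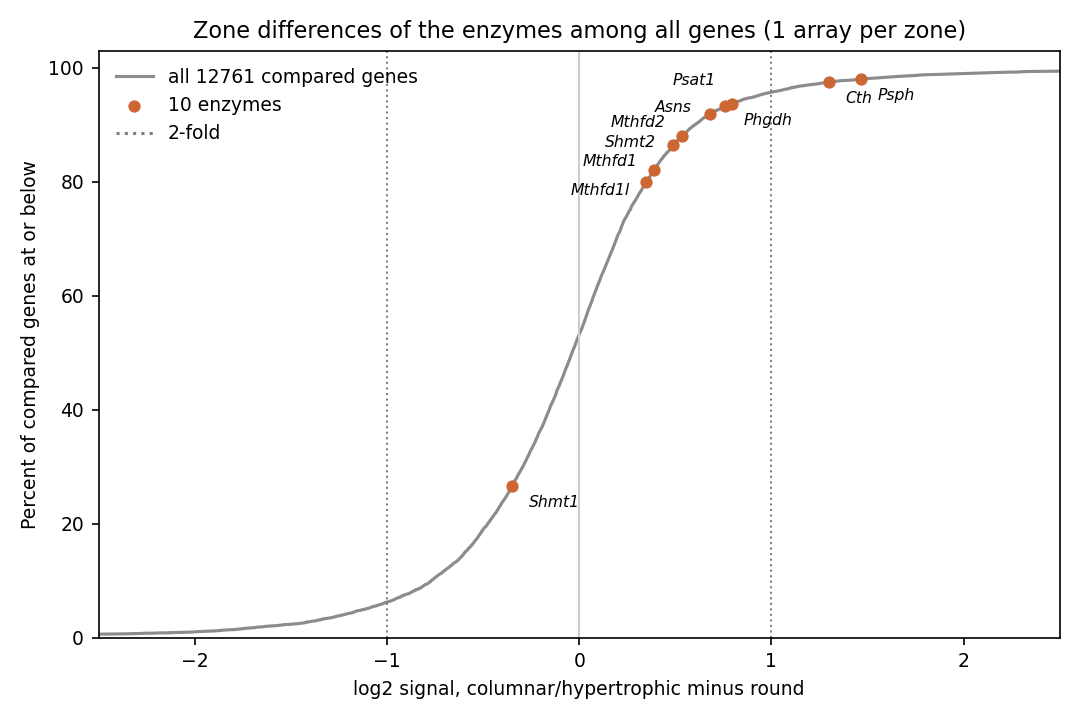
Cumulative share of the 12761 compared genes (percent, grey line) against the log2 difference, columnar/hypertrophic minus round, with the 10 enzymes marked and dotted lines at 2-fold. *Psph* at 1.46 and *Cth* at 1.30 lie beyond the 2-fold line, 7 enzymes lie between 0.35 and 0.80, and *Shmt1* lies at -0.35, where 73.3% of genes were as high or higher.

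The genes that take one-carbon units from serine differed less, and the cytosolic and mitochondrial forms of serine hydroxymethyltransferase lay on opposite sides. *Shmt2*, the mitochondrial form, had signals of 3050 in the round section and 4278 in the columnar section, a log2 difference of 0.49. A second bright probe set gave 2164 and 3053, a log2 difference of 0.50. The other 2 probe sets were dim and disagreed with each other, with signals of 89.7 and 350 on one and of 131.6 and 76.2 on the other. Both are of the _x_at kind, as is the brightest probe set of the gene, whereas the second bright one is not. The log2 differences of the dim probe sets, 1.96 and -0.79, were the highest and lowest of all probe sets of the set. *Shmt1*, the cytosolic form, had signals of 451 and 354, a log2 difference of -0.35 that is about the size of the pooled SD. Its next 2 probe sets gave 228 and 263, and 196 and 165, with log2 differences of 0.21 and -0.25. The probe sets of *Shmt1* thus lay on both sides of 0.

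The difference of *Shmt2* minus that of *Shmt1* was 0.84 on the log2 scale, and ranged from 0.58 to 0.85 over the other settings tried. The probe sets of the 2 genes overlapped, from the dim ones of *Shmt2*. No test of this contrast was possible with 1 array per zone.

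Genes of the folate-interconverting enzymes were all higher in the columnar section on their brightest probe set, by less than 1.5-fold. *Mthfd2*, encoding a mitochondrial dehydrogenase and cyclohydrolase, had signals of 3833 and 5554 on one probe set and of 2288 and 4102 on the other. Its log2 differences were 0.54 and 0.84, so the fold depended on the probe set. *Mthfd1l*, encoding the mitochondrial enzyme that releases formate, had signals of 2733 and 3483 on its single probe set. Its log2 difference of 0.35 was reached by 20.1% of all genes and is close to the pooled SD. *Mthfd1*, the cytosolic trifunctional enzyme gene, had signals of 1304 and 1710. A second probe set gave 732 and 1037, and the remaining, dim one 184 and 172. The log2 differences were 0.39, 0.50 and -0.10, so the dim probe set lay on the other side of 0. *Mthfd1* and *Mthfd1l* differed between the zones by nearly the same amount, with a contrast of -0.04 that took both signs over the settings.

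The members are bright genes, so they were also set beside genes of similar brightness. Of the 10, 9 had a mean signal of at least 1000, all but *Shmt1*, and these 9 were all on the columnar side. The cut thus left out the only member on the round side, and *Psph* was under 1000 in the round section, at 989. The 4255 genes of that brightness had a median log2 difference of 0.07, with 56.9% on the columnar side. At least 1.5-fold higher there were 5 of the 9 members and 10% of the bright genes. At least 2-fold higher were 2 members and 3.08% of the bright genes. The 9 bright members lay further to the columnar side than the bright genes as a whole, in a comparison of 2 arrays only. The members were chosen with earlier results of these data known, so this is a description and not a test.

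**Figure D3:**
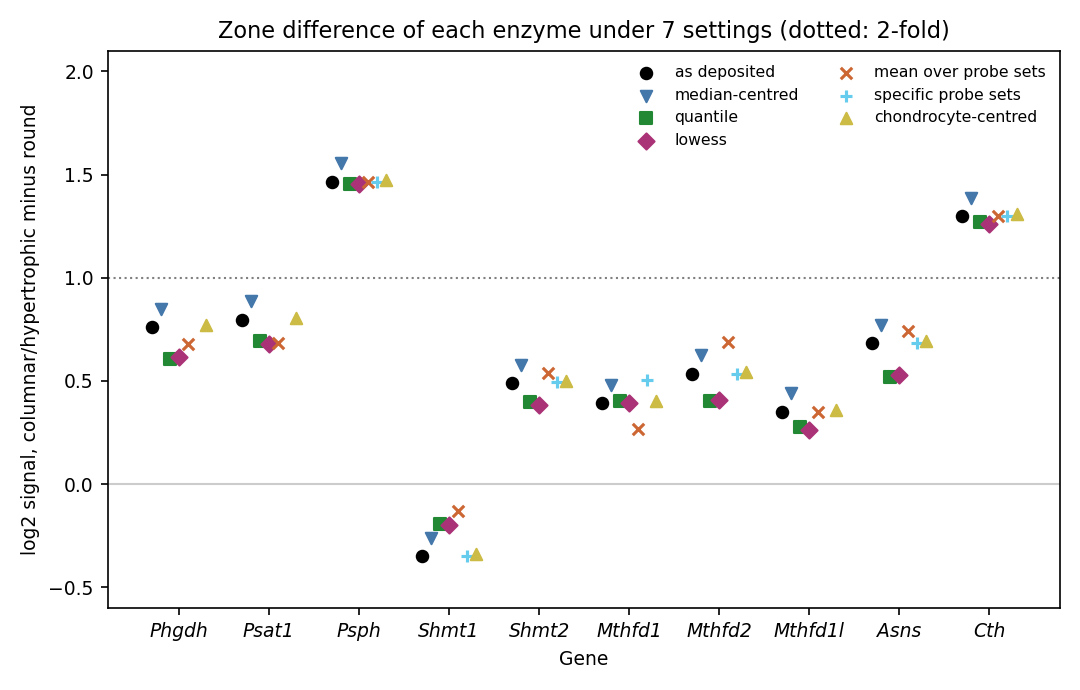
Log2 difference, columnar/hypertrophic minus round, of each enzyme under 7 settings of scaling and of the choice of probe set, with 1 marker per setting, a solid line at 0 and a dotted line at 2-fold. *Psph* and *Cth* stay above the dotted line and *Shmt1* below 0. The setting of specific probe sets kept only identifiers without _x_at, _s_at or _a_at, which left no value for *Phgdh*, *Psat1* and *Mthfd1l*.

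Each enzyme kept its direction under all settings tried, although the choice of floor could not change these values, since every signal used lay above the floors. Over these settings the log2 difference of *Psph* ranged from 1.45 to 1.56, that of *Cth* from 1.26 to 1.39, that of *Psat1* from 0.68 to 0.89 and that of *Phgdh* from 0.60 to 0.85. *Asns* ranged from 0.52 to 0.77, *Mthfd2* from 0.40 to 0.69, *Shmt2* from 0.38 to 0.58, *Mthfd1* from 0.26 to 0.50 and *Mthfd1l* from 0.26 to 0.44. *Shmt1* ranged from -0.35 to -0.13. The median of the set was lowest after quantile normalization, at 0.46, and highest when centred on the median difference, at 0.70.

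Genes of neighbouring pathways were taken from 5 lists. In serine and glycine metabolism, 10 of 15 listed genes had a probe set of their own and 8 were compared. Of these, 7 were higher in the columnar section (6 after quantile normalization or lowess centring, or with the mean over probe sets). The list median was 0.15, and 1 gene, *Sptlc2*, was at least 2-fold higher. *Sptlc2*, a subunit gene of serine palmitoyltransferase, which uses serine to begin sphingolipid synthesis, had signals of 869 and 3000. Its log2 difference was 1.79, and 0.77 on its lowest probe set. *Sfxn1*, encoding the mitochondrial serine carrier and named here after its values were seen, had signals of 1966 and 3452, a log2 difference of 0.81. *Srr*, encoding serine racemase, lay furthest on the other side at -0.41, with signals of 375 and 283. Its 6 probe sets ranged from -1.07 to 0.05. *Gldc*, the decarboxylase gene of the glycine cleavage system, lay under the floor in both arrays.

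Folate carriers and other folate enzymes did not lean to one array. Of 14 listed genes, 12 had their own probe sets and 10 were compared, and 6 were higher in the columnar section (7 when median-centred or quantile-normalized, 5 with the mean over probe sets), with a median of 0.06 that was -0.02 with the mean over probe sets. None was 2-fold apart as deposited. The largest differences were those of *Slc46a1*, a folate transporter gene with signals of 78.1 and 146.9 close to the floor and a log2 difference of 0.91, and of *Aldh1l1*, the cytosolic formyltetrahydrofolate dehydrogenase gene, with 199 and 101 and a log2 difference of -0.98. The second probe set of *Slc46a1* gave a log2 difference of 1.31. The gene passed 2-fold when median-centred, after quantile normalization or lowess centring, with the mean over probe sets and with specific probe sets only. The mitochondrial counterpart *Aldh1l2* had signals of 3974 and 4584, a log2 difference of 0.21. *Mthfd2l*, a paralog of *Mthfd2*, had signals of 1067 and 841, a log2 difference of -0.34, and its 4 probe sets all lay below both probe sets of *Mthfd2*. *Aldh1l2* and *Mthfd2l* were named after their values were seen.

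**Figure D4:**
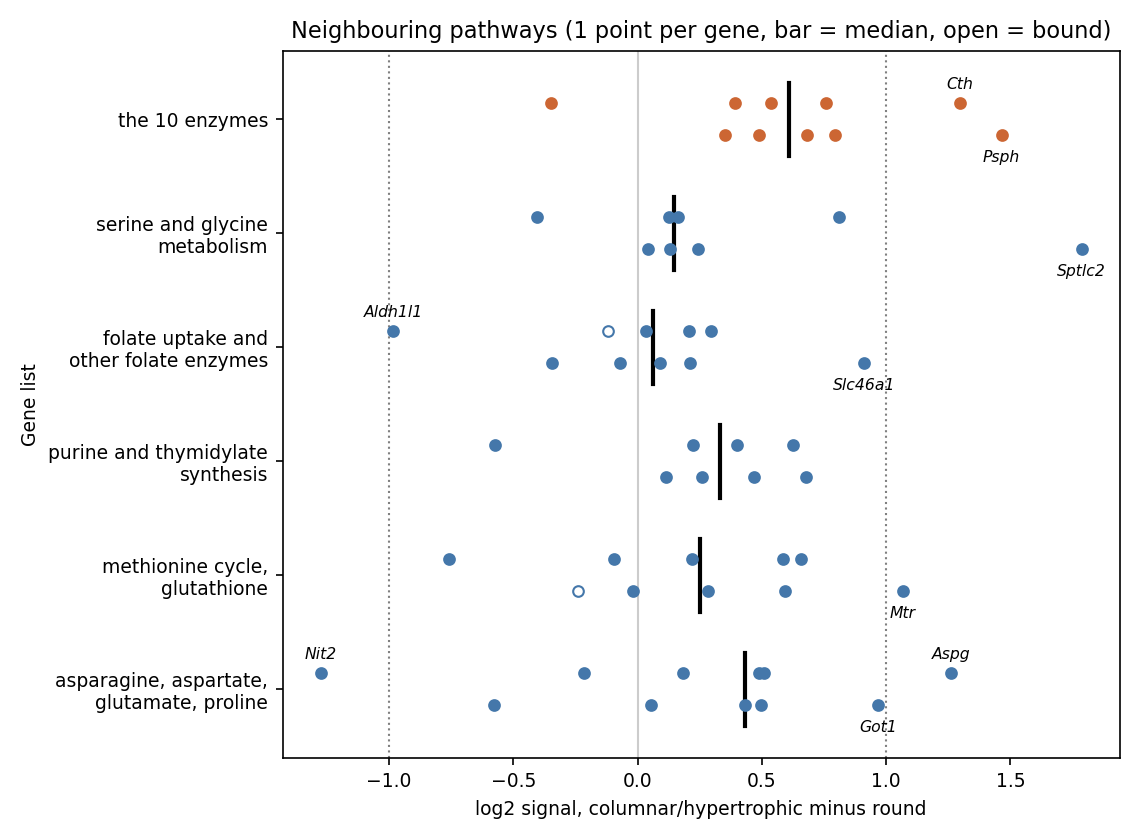
Log2 difference, columnar/hypertrophic minus round, of each compared gene in the set of 10 enzymes and in 5 lists of neighbouring pathways, with 1 point per gene (open where a signal lies under the floor in 1 array), bars at the list medians and dotted lines at 2-fold. The medians are 0.61 for the 10 enzymes, 0.15, 0.06, 0.33 and 0.25 for the next 4 lists and 0.43 for the last, and names are given beyond 0.9 on either side.

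Genes of purine and thymidylate synthesis, which use one-carbon units, were higher in the columnar section in 7 of 8 cases, with a median of 0.33 and 0 at least 2-fold apart. *Paics*, encoding an enzyme of purine synthesis, had signals of 9497 and 14642, a log2 difference of 0.62 on its brightest probe set and 0.11 on its lowest. *Prps2*, of phosphoribosyl pyrophosphate synthesis, had the highest value of the list at 0.68, with signals of 203 and 325, although its probe sets ranged down to -0.14. *Tyms*, encoding thymidylate synthase, was the exception with signals of 159 and 106, a log2 difference of -0.58. Genes of cell proliferation lay on the same side as *Tyms*, with 7 of 7 higher in the round section, a median of -0.27 and summed signals of 33197 and 27694. Whether the shares of dividing cells bear on *Tyms* or *Shmt1* was not tested.

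In the methionine cycle, transsulfuration and glutathione list, 10 of 13 genes were compared and 6 were higher in the columnar section, with a median of 0.25. The count was 7 when median-centred, after quantile normalization or with the mean over probe sets, and 8 after lowess centring. *Mtr*, the methionine synthase gene, had signals of 287 and 601, a log2 difference of 1.07 on its brightest probe set and 0.15 on its lowest, and was the only gene of the list at least 2-fold apart, and was not so when its probe sets were averaged. *Mpst*, encoding a sulfurtransferase, had 617 and 365, a log2 difference of -0.76. *Cbs*, the gene of the step just before *Cth*, had signals of 148 and 146. Its log2 difference of -0.02 turned to as much as 0.23 with lowess centring, and it lay 1.32 below that of *Cth* as deposited.

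In the asparagine, aspartate, glutamate and proline list, 11 of 14 genes were compared, 8 were higher in the columnar section and the median was 0.43. Genes of asparagine breakdown went both ways. *Aspg*, encoding an asparaginase, had signals of 107 and 257, a log2 difference of 1.26 that fell to 0.31 with the floor raised to percentile 60, where no gene of the list was at least 2-fold higher in the columnar section. *Asrgl1*, encoding another asparaginase and named after its values were seen, had 1977 and 1324. Its log2 difference was -0.58 on its brightest probe set and -1.67 on its lowest. *Nit2*, encoding an omega-amidase, had 1104 and 456, a log2 difference of -1.27, and was the only gene of this list at least 2-fold higher in the round section. *Got1*, the cytosolic aspartate aminotransferase gene, also named after its values were seen, had signals of 1102 and 2155, a log2 difference of 0.97, which passed 2-fold when median-centred.

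Most zone marker genes lay on the side of their label, with exceptions. Of columnar and prehypertrophic genes, 7 of 7 were higher in the columnar section by at least 2-fold (6 after quantile normalization or lowess centring), and of round or resting genes 6 of 7 were so in the round section, the exception being *Sfrp5* with a log2 difference of 0.08. Of hypertrophic genes, 3 of 4 compared were at least 2-fold apart with the columnar section higher. The other, *Vegfa*, had signals of 3095 and 1877, a log2 difference of -0.72 that went against the label, and *Mmp13* lay under the floor in both. Perichondrial, tendon and fibroblast genes lay on the round side in 7 of 7 cases, 6 of them by at least 2-fold, with summed signals of 62187 and 10903 and with *Scx* under the floor in the columnar section only. The part of such cells in the lower enzyme signals of the round section was not tested. The 5 general chondrocyte genes had summed signals of 213180 and 218020 and log2 differences from -0.06 to 0.20, with a median of -0.01 that moved to -0.20 with lowess centring. These are values of the brightest probe sets, and the probe sets of *Sox9* ranged from -0.70 to 0.23. *Col9a1*, another of the 5 genes, gave the highest signal of each array, 68899 and 67986. Whether signals so high still follow the amount of RNA was not tested, so near-equal values there say little about equal amounts. With differences centred on the median of these 5, chosen as an alternative after the data were seen, the set of enzymes had a median of 0.62, with 9 of 10 on the columnar side, and the same limit applies to this value. Myeloid, endothelial and erythroid lists had 3, 3 and 1 compared genes, none 2-fold apart as deposited (1 myeloid gene after quantile normalization or lowess centring), with *Ptprc*, *Tek* and *Hba-a1* under the floor in both arrays. Without a floor, each of these lists had 1 gene at least 2-fold higher in each direction. With the floor at percentile 20 the endothelial and erythroid lists did too, and the myeloid list had 1 toward the round section. Skeletal muscle genes were higher in the columnar section in 3 of 3 compared, 2 of them by at least 2-fold as deposited, with summed signals of 155 and 768. *Ckm* and *Tnnt3* lay under the floor in the round section only, and *Myh3* in both. *Tmem38b*, the gene of TRIC-B, had signals from 69.4 to 323 in the round section and from 43.1 to 304 in the columnar section over its 4 probe sets. Whether the deleted part of the gene holds these probes is not known here, so they do not check the genotype.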

How the data were processed

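Signals of 2 Affymetrix mouse genome arrays were used as deposited. The authors deposited 1 linear intensity per probe set and array. MAS5, without a version, is named in the submitters' processing notes, whereas robust multiarray analysis is named in the study's methods. Means trimmed by 2% at each end were 497 and 496. The samples were assigned to zones from the cell type labels. Gene names came from the platform's annotation table, in which 34945 of 45037 had 1 symbol, 932 several and 9160 none. RefSeq held 34741 of the first and changed 0 symbols.

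Signals under the 40th percentile of both arrays, 65.9, were set to it. Differences were taken on the log2 scale as columnar/hypertrophic minus round, and a gene took its brightest probe set. Probe sets under the floor in both arrays were not compared. Calls were made by size only, at 2-fold, with 1.5-fold and 3-fold as alternatives. The number of arrays limits the precision. The members and lists were chosen with earlier results of these data known. All 10 members are named, and from each pathway list the genes at least 2-fold apart and the largest difference in each direction. *Paics*, *Cbs* and *Gldc* were named outside this rule, as were the genes said above to be named after their values were seen. With 2 arrays each gene has 1 difference, so no genes of like pattern were sought. Steps were tested on simulated data. The simulated noise was less than the spread between probe sets of 1 gene, so this checks the steps and not the certainty of the differences. Promoter sequences came from RefSeq (GRCm38.p6). Computation used pandas 2.3.3, numpy 2.4.6 and statsmodels 0.14.6 under Python 3.11.15, with figures by matplotlib 3.10.9.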

Additional observations from a re-analysis of the deposited data

How the results depend on the processing

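No paired analysis was possible because 1 array was made of each section, which left no numbered pairs. For the same reason no array could be left out. No log2 difference of a single enzyme moved by as much as the pooled SD of 0.34 in 87 comparisons with other settings. Many of these comparisons could not move. The floors, at most 206.9, lay under every signal used, the lowest being 354 for *Shmt1*. Centring on a median takes the same amount from every gene, and a gene with 1 probe set has no other to average or choose. The count of 87 is therefore no measure of robustness. That SD is wide for medians, and medians near 0 can turn sign within it, as that of folate uptake and other folate enzymes did, from 0.06 to -0.02 with the mean over probe sets. Of the counts and medians of the main comparisons, 95 stayed within 1.5 times or within that SD and 12 moved. The count of 95 is no measure of robustness either. The median and counts of the enzymes could not move with the floor, and 6 of 7 enzymes passed as the same as 9 of 10. The 12 were all counts under another floor or fold rule.

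By a 3-fold rule 0 enzymes, and by a 1.5-fold rule 5, were on the columnar side. Of all genes, 546 passed the 2-fold rule on the columnar side and 798 on the round side. These counts were 1053 and 1519 for a floor at percentile 20, 347 and 407 for percentile 60, and 1940 and 2524 without a floor. They were 214 and 271 at 3-fold and 1331 and 1953 at 1.5-fold. A looser or stricter rule or floor changes these counts by its construction. With specific probe sets only, 7 enzymes were compared and 6 were higher in the columnar section. That setting dropped identifiers with _x_at, _s_at or _a_at by their ending alone. Being dropped therefore does not show that a probe set matches another gene.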
